A study of Mus musculus with 12 samples.

Results

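The collagen gene family was followed in mouse kidneys across a cross of diabetes with loss of the chemokine receptor D6. Its members were the genes whose symbol has the form of Col, a type number, the letter a and a chain number. That rule uses no measured value, but it was chosen with earlier results of these data known. There were 44 such genes among the 19936 genes measured, of which 11 form fibrillar collagens, 6 form the type IV collagen of basement membranes and 27 belong to other types. All 44 passed the filter on dim genes, which asks that a gene be brighter than the lowest 25 percent of an array on 3 or more arrays. Col21a1 is not among the 44 collagen symbols of the mouse RefSeq genes used here, so it was not analysed.

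Kidney RNA of 12 mice aged 6 months was measured on 1 array each, with 3 arrays per group. OVE-D6 mice had diabetes and were homozygous for the D6 deletion, whereas OVE mice had diabetes and a wild-type D6 gene. D6 mice had the homozygous deletion without diabetes, and FVB mice had neither. D6, encoded by Ackr2, is an atypical receptor that takes up inflammatory CC chemokines and degrades them. OVE is short for OVE26, a line that, as background, becomes diabetic through a transgene expressed in the insulin-producing beta cells of the pancreas. All groups shared the FVB strain background. Per the labels, the deletion came from C57BL/6 mice, was crossed to FVB for at least 10 generations and was then bred for 2 generations into OVE mice. The D6 deletion was in every cell of the animal, so no group separates its loss in the kidney from its loss elsewhere.

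Collagens are trimers of alpha chains that assemble in the cell, are secreted and build the matrix outside it. Fibrillar collagens form the rope-like fibres that accumulate in scarred kidneys, type IV collagen forms the sheet of basement membranes, and the remaining types decorate fibrils, anchor sheets or sit in the cell membrane. In the glomerulus, the kidney's filter, the mature basement membrane is built from the chains of Col4a3, Col4a4 and Col4a5, while the chains of Col4a1 and Col4a2 occur in basement membranes throughout the body.

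Values are log2 probe-set signals, so a difference of 1 is a doubling, and levels of different genes are not compared because probe sets differ in brightness. The number of arrays limits the precision. The 8 markers of kidney tubule were all measured, and their mean level lay between 12.35 and 12.70 on the 12 arrays. As a gauge of dimness, 95% of 1015 olfactory receptor genes averaged at or below 5.93, and among the collagens Col19a1 and Col4a6 averaged at or below that level. Ackr2 itself lay between 6.74 and 7.04 on the 12 arrays, and its differences of -0.10 ± 0.08 (SE) for D6 over FVB and 0.03 ± 0.08 for OVE-D6 over OVE did not pass (limma adjusted p = 1 and 0.899). Whether its probes lie in the deleted stretch is not known here, so this neither checks nor contradicts the labels. A principal component analysis of all tested genes placed OVE replicates 1 and 2 at 27.03 and 29.37 on its first axis (35.9% of the variance) and OVE replicate 3 at 6.95, while no array of another group exceeded 5.17. OVE-D6 replicate 3 also stood apart, because its 5 measured markers of adrenal cortex averaged 8.18, against 5.38 to 5.71 on the other arrays.

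In diabetic mice with intact D6 (OVE), 5 collagen genes rose and 3 fell relative to FVB mice. The 5 that rose were Col12a1, Col4a2, Col1a2, Col6a3 and Col14a1, with increases of 1.27- to 3.33-fold. Those that fell were Col4a3, Col4a4 and Col8a2, with decreases of 1.32- to 1.37-fold. The test was limma with Benjamini-Hochberg adjustment over all 16480 tested genes, and a gene passed at an adjusted p under 0.05. Of all tested genes, 4.9% rose and 2.38% fell, while the collagen counts were 11.4% and 6.82% of the 44. At an unadjusted p under 0.05, 26 collagens (59.1%) differed, against 24.1% of all tested genes.

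The OVE arrays lay wholly above the FVB arrays in 15 collagens and wholly below them in another 15. Across all tested genes, those shares were 13.6% above and 13.5% below. The median difference over the 44 genes was -0.11, against -0.02 over all tested genes. The mean over the same 44 genes, relative to the FVB mean, had the opposite sign. It was 0.09 in OVE mice, with single OVE arrays between -0.02 and 0.23, against -0.06 to 0.07 on the FVB arrays, and OVE replicate 2 was the highest. The class medians were -0.04 for the fibrillar, -0.13 for the basement membrane and -0.11 for the other collagens, but the fibrillar median was 0.21 when a stricter filter at the 50th percentile removed dim genes. Within each class some members lay well above the FVB level and others below it.

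The count of 8 collagens depended on single arrays. It was 4, 3 and 2 without FVB replicates 1, 2 and 3, it was 2 without OVE replicate 2, and it was 14 without OVE replicate 3. Col12a1 and Col4a3 passed under every one of the 19 alternative settings and left-out arrays. In a fit of the OVE and FVB arrays alone, 3 collagens passed, namely Col12a1, Col4a2 and Col4a3.

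**Figure D1:**
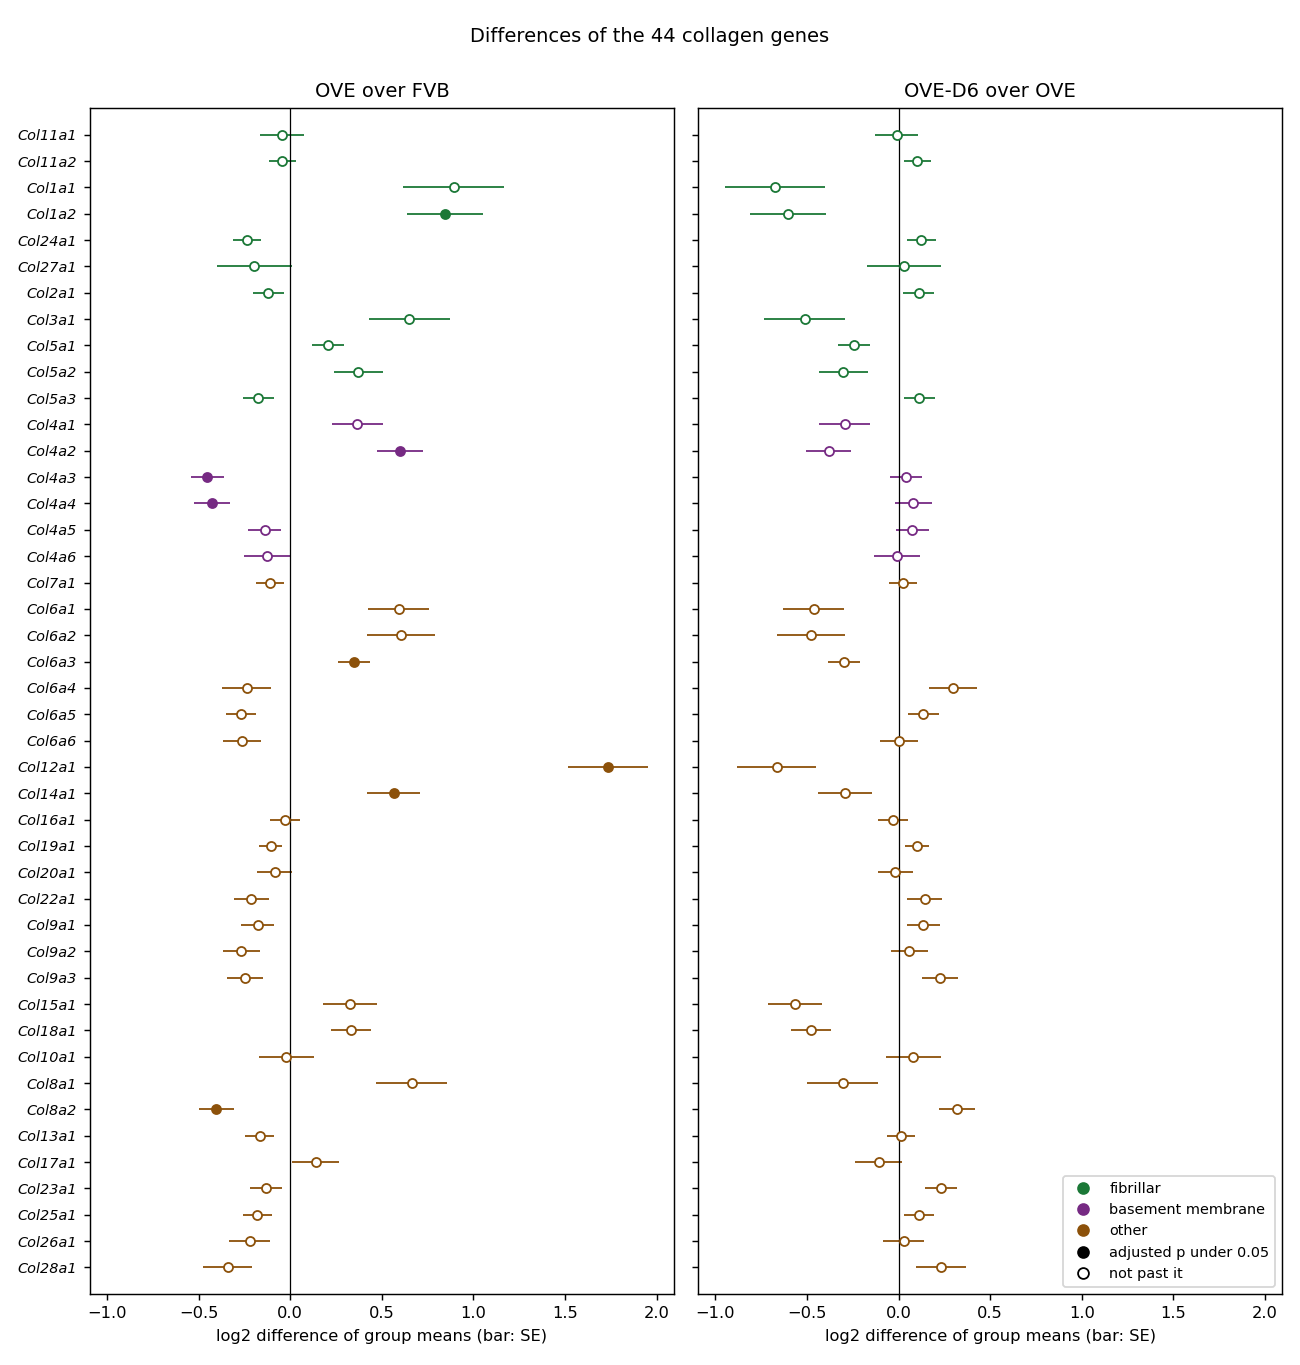
Log2 differences of the 44 collagen genes for OVE over FVB (left) and OVE-D6 over OVE (right), with bars for the standard error, colours for the class and filled points for an adjusted p under 0.05. The 8 filled points all lie in the left panel, and Col12a1 has the largest difference there, 1.73.

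Among the fibrillar collagens, Col1a2 alone passed the test in OVE over FVB, and Col1a1 and Col3a1 lay above the FVB arrays without passing. Col1a1 and Col1a2 encode the chains of type I collagen, the main fibre of scar tissue, and Col3a1 encodes type III collagen, which is laid down with it. Col1a2 had log2 values of 9.44, 10.12 and 9.25 on the OVE arrays, against 8.74, 8.84 and 8.70 on the FVB arrays. The 2 groups did not overlap, and OVE replicate 2 was the highest of all 12 arrays. The rise was 0.84 ± 0.21 (SE, n = 3 per group), or 1.79-fold, with a limma adjusted p of 0.0308. It no longer passed without any 1 of FVB replicates 1, 2 and 3 or OVE replicate 2, where the adjusted p lay between 0.0716 and 0.0964.

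Col1a1 read 8.81, 9.91 and 8.70 on the OVE arrays, against 8.09, 8.33 and 8.33 on the FVB arrays. Its groups did not overlap either, but OVE replicate 2 lay far above the other two OVE arrays. The difference of 0.89 ± 0.28 did not pass (limma adjusted p = 0.0702). Without OVE replicate 2 it was 0.51 (limma adjusted p = 0.185), and without OVE replicate 3 it was 1.11 and passed (0.0274). Col3a1 read 8.17, 9.19 and 8.40 in OVE mice, against 7.85, 8.04 and 7.93 in FVB mice. The same array, OVE replicate 2, was again the highest. Its difference of 0.65 ± 0.22 did not pass (limma adjusted p = 0.0956). It was 0.35 without OVE replicate 2 (limma adjusted p = 0.274) and passed without OVE replicate 1 (0.86, adjusted p = 0.0486).

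The remaining 8 fibrillar genes did not pass in OVE over FVB. Col5a1 and Col5a2, chains of the type V collagen that starts fibril assembly, had differences of 0.21 and 0.37, with OVE arrays wholly above FVB arrays. Col2a1 and Col5a3 had OVE arrays wholly below FVB arrays, with differences of -0.12 and -0.18. Col2a1 is the chain of cartilage collagen. The other fibrillar members, Col11a1, Col11a2, Col24a1 and Col27a1, had differences between -0.24 and -0.04.

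Markers of fibroblasts, the cells that make most fibrillar collagen, moved in the same comparison. Of 10 fibroblast and myofibroblast markers 7 rose, namely Acta2, Tagln, Dcn, Lum, Postn, Vim and Des, against 4.9% of all tested genes. Pdgfra, Pdgfrb and Thy1 did not pass, with differences of 0.39, 0.39 and 0.07. The mean level of the 10 lay between 9.20 and 9.59 on the OVE arrays, against 8.58 to 8.89 on the FVB arrays. Markers of macrophages, immune cells that enter injured kidneys, moved further. Of 8 such markers 7 rose, with a median difference of 1.35, and their mean level lay between 8.16 and 9.15 on the OVE arrays, against 7.29 to 7.62 on the FVB arrays. Of the 8 tubule markers 2 fell, Lrp2 by 0.35 and Slc12a3 by 0.38 on the log2 scale, against 2.38% of all tested genes. In all, 7 of the 8 had a negative difference, while Aqp2 went the other way, at 0.33, and did not pass. The mean level of the 8 lay between 12.35 and 12.56 on the OVE arrays, against 12.58 to 12.70 on the FVB arrays, and OVE replicate 2 was the lowest. The part of these 3 marker lists in the collagen differences was not tested. In whole-kidney RNA, more cells of a type and more RNA per cell cannot be told apart, nor can fewer cells and less RNA per cell.

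For Col1a2, whose promoter is shown as that of the fibrillar gene that rose, the 250 bases before the start lie at chr6:4505368-4505617 of GRCm38.p6 on the plus strand (RefSeq). They hold 2 GC boxes (GGGCGG, read on both strands) and 1 CCAAT box (CCAAT or ATTGG), shown in capitals.
Col1a2: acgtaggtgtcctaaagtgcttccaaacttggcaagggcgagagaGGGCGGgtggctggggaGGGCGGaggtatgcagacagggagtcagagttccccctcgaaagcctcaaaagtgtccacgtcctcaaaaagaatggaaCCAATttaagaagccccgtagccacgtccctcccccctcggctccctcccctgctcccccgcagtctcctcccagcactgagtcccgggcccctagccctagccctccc
Of 32851 windows of that length before mouse gene starts, 32.7% held a GC box, 33.8% a CCAAT box and 12.4% a TATA box (TATAAA or TTTATA). Windows were given for 35 collagen genes, 38 windows in all, of which 22 held a GC box, 13 a CCAAT box and 5 a TATA box. These are matches of letters and say nothing about binding.

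**Figure D2:**
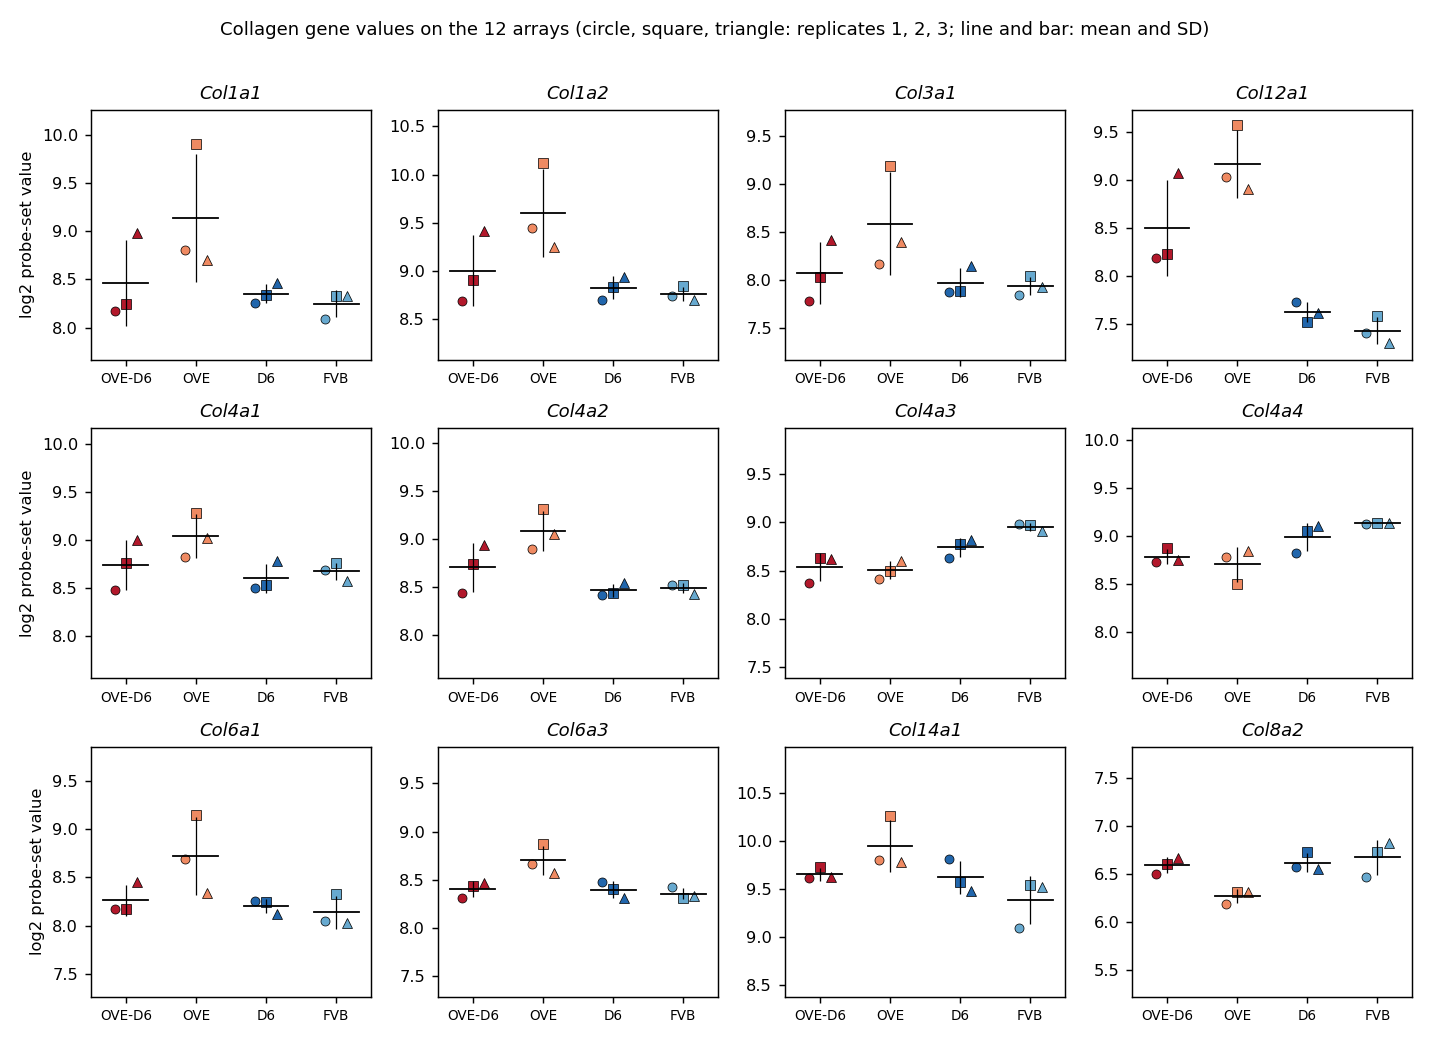
Log2 probe-set values of 12 collagen genes in the 4 groups, with 1 point per array, the group mean as a line and the SD as a bar; every panel spans the same number of log2 units. Col12a1 shows the widest range, 7.30 to 9.57, and OVE replicate 2 (square) is the highest OVE array in the 9 panels other than Col4a3, Col4a4 and Col8a2.

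The 6 type IV chains did not move together in OVE over FVB, as 1 rose, 2 fell and 3 did not pass. Col4a2 rose by 1.51-fold, Col4a3 fell by 1.37-fold and Col4a4 by 1.35-fold. The chain pairs sit side by side in the genome, Col4a1 with Col4a2 on chromosome 8, Col4a3 with Col4a4 on chromosome 1 and Col4a5 with Col4a6 on the X chromosome.

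Col4a2 had values of 8.90, 9.31 and 9.05 on the OVE arrays, against 8.52, 8.52 and 8.43 on the FVB arrays. Every OVE array lay above every FVB array. The rise of 0.60 ± 0.12 (SE, n = 3 per group) had a limma adjusted p of 0.0159, and it did not pass without FVB replicate 3 (0.061) or OVE replicate 2 (0.0672). Its partner Col4a1 read 8.83, 9.28 and 9.02 in OVE mice, against 8.69, 8.76 and 8.58 in FVB mice. These groups also did not overlap, but by a small margin, and the difference of 0.37 ± 0.14 did not pass (limma adjusted p = 0.135).

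Col4a3 had values of 8.41, 8.50 and 8.60 on the OVE arrays, against 8.98, 8.97 and 8.91 on the FVB arrays. All OVE arrays were below all FVB arrays, whose spread was small (SD 0.04). The fall of 0.45 on the log2 scale (SE 0.09, n = 3 per group) had a limma adjusted p of 0.0124. Col4a4 read 8.78, 8.50 and 8.84 in OVE mice, against 9.13, 9.14 and 9.14 in FVB mice. It too separated the groups, with OVE replicate 2 the lowest of the 12 arrays. Its difference of -0.43 ± 0.10 passed (limma adjusted p = 0.0245), but not without any 1 of FVB replicates 1, 2 and 3 or OVE replicate 2, where the adjusted p lay between 0.0629 and 0.0896.

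Col4a5, whose chain joins those of Col4a3 and Col4a4 in the glomerular membrane, read 7.02, 7.12 and 7.28 on the OVE arrays, against 7.23, 7.43 and 7.18 on the FVB arrays. The groups overlapped, and the difference of -0.14 ± 0.09 did not pass (limma adjusted p = 0.372). Col4a6, a chain of tubular and smooth muscle basement membranes, read 5.71, 5.74 and 5.86 on the OVE arrays, against 5.78, 6.12 and 5.78 on the FVB arrays. Both groups lay near the level of the olfactory receptor genes, so little can be said of it.

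Podocytes, the glomerular cells that make the chains of Col4a3, Col4a4 and Col4a5, were followed through 5 measured markers. Of these 1 fell, Nphs1 (the slit-diaphragm protein nephrin), with a difference of -0.62, against 2.38% of all tested genes that fell. In all, 4 of the 5 had a negative difference. Synpo went the other way, at 0.24 with OVE arrays wholly above FVB arrays, and did not pass. The mean level of the 5 lay between 8.12 and 8.32 on the OVE arrays, against 8.42 to 8.55 on the FVB arrays. Their part in the differences of Col4a3 and Col4a4 was not tested.

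The promoters of Col4a2 and Col4a4 are shown because these genes moved in opposite directions. The 250 bases before the start of Col4a2 lie at chr8:11312555-11312804 on the plus strand of GRCm38.p6, and those of Col4a4 at chr1:82586850-82587099 on the minus strand. Capitals mark GC boxes and CCAAT boxes.
Col4a2: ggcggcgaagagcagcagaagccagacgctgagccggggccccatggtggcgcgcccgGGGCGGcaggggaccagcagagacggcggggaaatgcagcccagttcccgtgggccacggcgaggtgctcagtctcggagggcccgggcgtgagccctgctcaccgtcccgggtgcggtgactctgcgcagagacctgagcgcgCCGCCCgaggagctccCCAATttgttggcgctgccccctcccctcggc
Col4a4: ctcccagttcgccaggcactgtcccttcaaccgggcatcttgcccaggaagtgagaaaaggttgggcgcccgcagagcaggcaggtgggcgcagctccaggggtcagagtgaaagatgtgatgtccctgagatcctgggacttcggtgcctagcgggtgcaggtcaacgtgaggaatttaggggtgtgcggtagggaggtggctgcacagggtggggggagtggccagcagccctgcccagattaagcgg
The Col4a2 window holds 2 GC boxes, 1 of them on the other strand (CCGCCC), and 1 CCAAT box, whereas none of the searched motifs occurs in the Col4a4 window. The Col4a1 start lies next to that of Col4a2 on the opposite strand, and their 300-base windows, which run past the start, share 78 bases. The 250 bases before the Col4a1 start lie at chr8:11312827-11313076 on the minus strand. The stretch shown for Col4a2 therefore lies past the Col4a1 start, in the direction in which Col4a1 is read, and is not upstream of both genes.

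**Figure D3:**
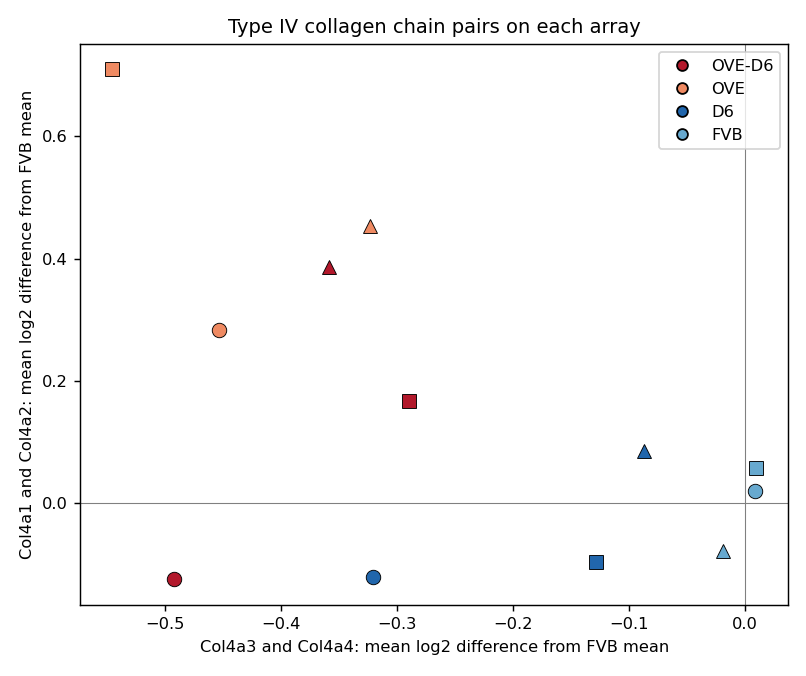
Mean log2 difference from the FVB mean of Col4a1 and Col4a2 (vertical) against that of Col4a3 and Col4a4 (horizontal), with 1 point per array, colours for the group and circle, square and triangle for replicates 1, 2 and 3. The OVE arrays lie at 0.28 to 0.71 on the vertical axis and -0.55 to -0.32 on the horizontal axis, and the D6 arrays lie at -0.32 to -0.09 on the horizontal axis, all below the FVB arrays.

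Type VI collagen, which forms beaded filaments around cells, had 1 of 6 chain genes past the test in OVE over FVB. Col6a3 had values of 8.66, 8.87 and 8.57 on the OVE arrays, against 8.42, 8.31 and 8.33 on the FVB arrays. The groups did not overlap, and OVE replicate 2 was the highest array. The rise of 0.35 ± 0.09 (SE, n = 3 per group), or 1.27-fold, had a limma adjusted p of 0.0336, which lay between 0.0557 and 0.122 without any 1 of FVB replicates 1, 2 and 3 or OVE replicates 1 and 2.

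The chains that assemble with it, Col6a1 and Col6a2, had larger differences that did not pass. Col6a1 read 8.69, 9.15 and 8.34 in OVE mice, against 8.05, 8.33 and 8.03 in FVB mice. OVE replicate 3 was only just above the highest FVB array, and the difference of 0.59 ± 0.17 missed the threshold narrowly (limma adjusted p = 0.0502). Col6a2 differed by 0.61 ± 0.19 (limma adjusted p = 0.0686). The alternative chains Col6a4, Col6a5 and Col6a6 had differences of -0.24, -0.27 and -0.26 and did not pass either.

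The FACIT collagens, which lie on the surface of fibrils, held the member with the largest difference of the family. Col12a1 encodes type XII collagen, found on type I fibrils under load, and it had values of 9.03, 9.57 and 8.90 on the OVE arrays, against 7.41, 7.58 and 7.30 on the FVB arrays. The lowest OVE array lay far above the highest FVB array. The rise was 1.73 ± 0.22 (SE, n = 3 per group), or 3.33-fold, with a limma adjusted p of 0.00179, and it passed with each array left out in turn.

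Col14a1, another fibril-associated chain, read 9.80, 10.26 and 9.78 on the OVE arrays, against 9.10, 9.54 and 9.52 on the FVB arrays. The groups did not overlap, FVB replicate 1 was the lowest array and OVE replicate 2 the highest. The rise of 0.56 ± 0.15, or 1.48-fold, had a limma adjusted p of 0.0386, and it passed in 3 of the 12 fits that leave out an array. It did not pass without any 1 of the FVB or OVE-D6 arrays, OVE replicates 1 and 2 or D6 replicate 2, where the adjusted p lay between 0.0512 and 0.135. The other 7 FACIT genes had differences between -0.27 and -0.03 and did not pass. Col9a2 and Col9a3, chains of a cartilage collagen, had OVE arrays wholly below FVB arrays, as did Col19a1 and Col22a1.

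Col8a2, a chain of the short network collagen VIII made by endothelial and other vessel cells, fell in OVE mice. Its values were 6.19, 6.31 and 6.31 on the OVE arrays, against 6.47, 6.73 and 6.82 on the FVB arrays. OVE lay below every other group on every array. The gene was removed by the stricter filter at the 50th percentile, which drops dim genes. The difference of -0.40 ± 0.10 (SE, n = 3 per group), or 1.32-fold lower, had a limma adjusted p of 0.026, which lay between 0.0716 and 0.105 without any 1 of FVB replicates 2 and 3 or OVE replicates 1 and 2. Col8a1, the other chain of that collagen, had a difference of the opposite sign, with 8.60, 9.41 and 8.60 in OVE mice, against 8.17, 8.14 and 8.32 in FVB mice. That difference of 0.66 ± 0.19 did not pass (limma adjusted p = 0.0567). The 6 endothelial markers gave no call in OVE over FVB, and their median difference was 0.05.

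The multiplexins Col15a1 and Col18a1, basement membrane zone collagens whose ends are released as fragments, had OVE arrays wholly above FVB arrays but did not pass. Col18a1 read 8.91, 9.37 and 8.94 in OVE mice, against 8.79, 8.70 and 8.74 in FVB mice, a difference of 0.33 ± 0.11 (limma adjusted p = 0.0863). Col15a1 differed by 0.33 ± 0.15 (limma adjusted p = 0.197). None of the 4 transmembrane collagens passed, and their differences lay between -0.18 and 0.14. Col7a1, the anchoring fibril gene, and the unclassed Col26a1 and Col28a1 had differences of -0.11, -0.22 and -0.34 without a call.

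Spread over the 12 arrays set the members apart. Col12a1 spanned 2.27 log2 units, Col1a1 1.82 and Col1a2 1.43, and at the other end Col19a1 spanned 0.17. The OVE group had the highest mean of the 4 groups in 16 collagens and the lowest in 24, whereas 29.3% and 35.3% of all tested genes had their highest and lowest mean there. No collagen had its highest mean in OVE-D6 mice, against 22% of all tested genes. OVE replicate 2 was the highest of the 12 arrays in 16 of the 44 collagens, against 12.9% of all tested genes, and in each of the 5 that rose.

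Among genes that handle collagen, members of all 5 lists passed in OVE over FVB. Of 5 measured cross-linking enzymes 3 rose, with a median of 0.53 over the list. Lox and Loxl1, which oxidise lysines so that fibres can be joined, differed by 1.78 ± 0.35 (limma adjusted p = 0.0124) and 0.65 ± 0.12 (0.00965). Pxdn, which cross-links type IV collagen, differed by 0.53 ± 0.13 (limma adjusted p = 0.0268). Of 9 measured collagen receptors 4 rose. They were the integrin chains Itga11 and Itga2, both by 0.53, the discoidin receptor Ddr2 by 0.69 and the collagen uptake receptor Mrc2 by 0.62.

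Of 15 genes of procollagen secretion, trimming and fibril assembly 5 rose. They were Sec24d, which packs procollagen into transport vesicles (0.41), the matrix protein Sparc (0.69) and the fibril-binding proteoglycans Dcn (0.91), Lum (0.88) and Bgn (0.53). Dcn and Lum also stand on the list of fibroblast markers. Of 16 genes that modify and fold the chains, 1 rose and 1 fell. Plod1, a lysyl hydroxylase, differed by 0.38 and P3h2, a prolyl 3-hydroxylase that acts on type IV chains, by -0.48. Of 13 basement membrane partners 3 rose, the laminin chains Lama2 (0.40) and Lama5 (0.35) and the linker Nid1 (0.68). These calls are to be read against the 4.9% and 2.38% of all tested genes that rose and fell.

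When the diabetic mice without D6 were set against those with D6, no collagen gene passed the test. The percentage of all tested genes that passed was 0.231%, as 8 rose (0.0485%) and 30 fell (0.182%). At an unadjusted p under 0.05, 16 collagens (36.4%) differed in limma, against 14.8% of all tested genes. The OVE-D6 arrays lay wholly above the OVE arrays in 6 collagens and wholly below them in 5, against 9.37% and 8.24% of all tested genes. The medians of the fibrillar, basement membrane and other collagens were -0.01, 0.02 and 0.02, against 0.01 over all tested genes.

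Col18a1 had the smallest adjusted p of the family in OVE-D6 over OVE. Its values were 8.53, 8.58 and 8.67 on the OVE-D6 arrays, against 8.91, 9.37 and 8.94 on the OVE arrays. The groups did not overlap, and the OVE-D6 arrays were also below the FVB arrays. The difference was -0.48 ± 0.11 (SE, n = 3 per group), with a 95% interval of -0.72 to -0.24 and a limma adjusted p of 0.0927. Col15a1 read 7.58, 7.87 and 7.96 in OVE-D6 mice, against 8.20, 8.76 and 8.16 in OVE mice, a difference of -0.57 ± 0.15 (limma adjusted p = 0.132). Without OVE replicate 3, both passed, as did Col6a1 and Col6a2, all 4 lower in OVE-D6 mice, while leaving out any other array gave 0 collagens. That fit called 668 genes in all.

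Each of the 5 genes that rose in OVE mice had an OVE-D6 mean between the OVE and FVB means, but the comparisons share the OVE arrays. Col12a1 read 8.19, 8.23 and 9.07 on the OVE-D6 arrays, against 9.03, 9.57 and 8.90 on the OVE arrays. OVE-D6 replicates 1 and 2 were below all OVE arrays, and replicate 3 was among them. The difference of -0.67 ± 0.22 did not pass (limma adjusted p = 0.196). Without OVE-D6 replicate 3, the array with the adrenal markers, it was -0.95 and again did not pass (limma adjusted p = 0.0629). OVE-D6 replicate 3 was the highest OVE-D6 array in 29 of the 44 collagens and replicate 1 the lowest in 33. Uneven counts also occurred in the other groups. FVB replicate 2 was the highest FVB array in 28, OVE replicate 2 the highest OVE array in 24 and D6 replicate 2 the highest D6 array in 23. OVE replicate 1 and D6 replicate 3 were each the lowest of their group in 24. Such shares over all tested genes were not computed. The part of the adrenal markers in these values was not tested.

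Col1a1 read 8.17, 8.25 and 8.98 on the OVE-D6 arrays, against 8.81, 9.91 and 8.70 on the OVE arrays. The groups overlapped through OVE-D6 replicate 3, and the difference of -0.67 ± 0.28 did not pass (limma adjusted p = 0.278). It was -0.93 without that array and -0.29 without OVE replicate 2, with limma adjusted p of 0.193 and 0.667. Col1a2 read 8.69, 8.90 and 9.41 in OVE-D6 mice, against 9.44, 10.12 and 9.25 in OVE mice, and Col3a1 read 7.78, 8.03 and 8.42, against 8.17, 9.19 and 8.40. Both overlapped, and their differences of -0.60 ± 0.21 and -0.51 ± 0.22 did not pass (limma adjusted p = 0.215 and 0.308). Without OVE replicate 2 they were -0.34 and -0.21 (limma adjusted p = 0.543 and 0.723), and without OVE-D6 replicate 3 they were -0.81 and -0.69 (0.146 and 0.249). Their 95% intervals, -1.06 to -0.15 and -0.99 to -0.03, do not set the size of a difference closely.

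**Figure D4:**
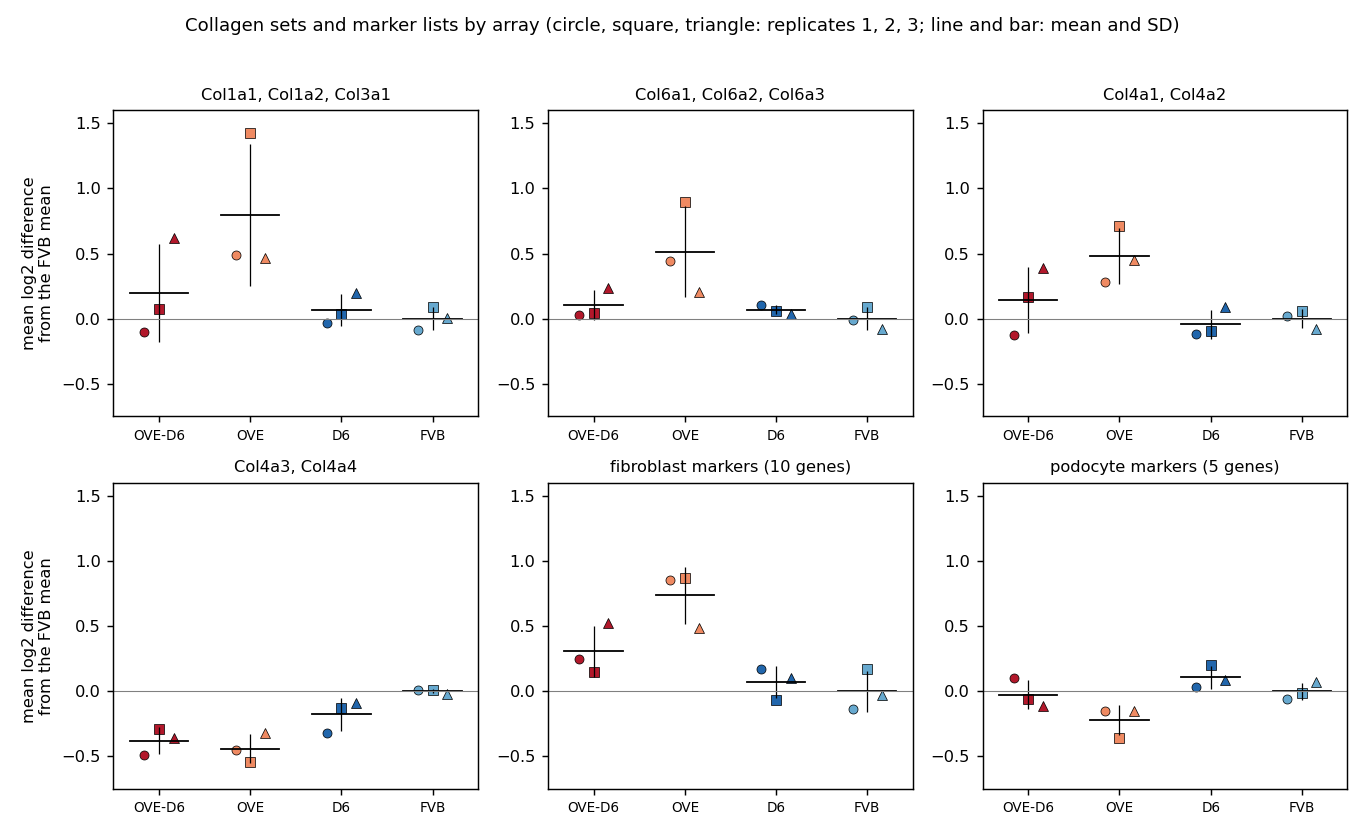
Mean log2 difference from the FVB mean on each array, for 4 sets of collagen genes and for the fibroblast and podocyte markers, with 1 point per array, the group mean as a line and the SD as a bar. For Col1a1, Col1a2 and Col3a1 the OVE-D6 arrays span -0.10 to 0.62 and the OVE arrays 0.47 to 1.43, while for Col4a3 and Col4a4 the OVE-D6 arrays span -0.49 to -0.29 and the OVE arrays -0.55 to -0.32.

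No type IV chain passed in OVE-D6 over OVE, and 1 of the 6, Col4a2, had an unadjusted p under 0.05 in limma, where the share of all tested genes was 14.8%. Col4a2 read 8.44, 8.74 and 8.94 on the OVE-D6 arrays, against 8.90, 9.31 and 9.05 on the OVE arrays, and the difference of -0.38 ± 0.12 did not pass (limma adjusted p = 0.196). Col4a1 read 8.48, 8.76 and 9.0, against 8.83, 9.28 and 9.02 on the OVE arrays, a difference of -0.30 ± 0.14 (limma adjusted p = 0.353), or -0.18 without OVE replicate 2 (0.733). Both genes overlapped between the groups. Col4a3 read 8.37, 8.63 and 8.62 on the OVE-D6 arrays, against 8.41, 8.50 and 8.60 on the OVE arrays. Col4a4 read 8.73, 8.88 and 8.75 on the OVE-D6 arrays, against 8.78, 8.50 and 8.84 on the OVE arrays. For this pair the groups lay on top of each other, with differences of 0.04 (95% interval -0.15 to 0.23) and 0.08 (-0.14 to 0.30). The podocyte markers averaged 8.36 to 8.57 on the OVE-D6 arrays, against 8.12 to 8.32 on the OVE arrays, and none passed, with 2 at an unadjusted p under 0.05.

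Col8a2 read 6.50, 6.60 and 6.67 on the OVE-D6 arrays, against 6.19, 6.31 and 6.31 on the OVE arrays. Every OVE-D6 array was above every OVE array, and the difference of 0.32 ± 0.10 did not pass (limma adjusted p = 0.166). Col6a3 lay wholly lower, at 8.31, 8.43 and 8.47 in OVE-D6 mice, against 8.66, 8.87 and 8.57 in OVE mice, with a difference of -0.30 ± 0.09 (limma adjusted p = 0.161). Col14a1 was lower on all 3 OVE-D6 arrays too, at 9.61, 9.73 and 9.62, against 9.80, 10.26 and 9.78 on the OVE arrays, with a difference of -0.29 ± 0.15 (limma adjusted p = 0.387), or -0.14 without OVE replicate 2 (0.802).

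No gene of the collagen-handling lists passed in OVE-D6 over OVE. At an unadjusted p under 0.05 there were 7 of the 15 secretion and assembly genes, 4 of the 9 receptors, 2 of the 16 modification genes, 2 of the 13 basement membrane partners and 1 of the 5 cross-linking enzymes, against 14.8% of all tested genes. The nearest in p were Sec24d (-0.35, limma adjusted p = 0.103), Lum (-0.72, 0.148) and Ddr2 (-0.51, 0.158), and Lox differed by -0.93 (0.246). None of the 10 fibroblast markers passed either, although 7 had an unadjusted p under 0.05, and their median difference was -0.41. Their mean level lay between 8.87 and 9.24 on the OVE-D6 arrays, against 9.20 to 9.59 on the OVE arrays. Of the 8 macrophage markers 3 fell, Lyz2, Cd14 and Mrc1, against 0.182% of all tested genes. The median over the 8 was -1.19. Their mean level lay between 7.58 and 7.81 on the OVE-D6 arrays, against 8.16 to 9.15 on the OVE arrays. The part of either list in the collagen values was not tested.

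Loss of D6 without diabetes gave no collagen call, and 0.0121% of all tested genes passed in D6 over FVB, none upwards. At an unadjusted p under 0.05 there was 1 collagen in limma, Col4a3, against 3.82% of all tested genes. It read 8.63, 8.78 and 8.82 on the D6 arrays, against 8.98, 8.97 and 8.91 on the FVB arrays. The groups did not overlap, and the difference of -0.21 ± 0.09 (SE, n = 3 per group) had an unadjusted p of 0.0341 and a limma adjusted p of 1. Col4a4 read 8.82, 9.05 and 9.10 on the D6 arrays, against 9.13, 9.14 and 9.14 on the FVB arrays, a difference of -0.15 ± 0.10. Col15a1 was the third collagen with D6 arrays wholly below FVB arrays, and Col11a2 the only one with D6 arrays wholly above, against 4.2% and 5.59% of all tested genes.

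All 6 type IV genes had a negative difference in D6 over FVB, from -0.21 to -0.01, of which none passed, and 48.6% of all tested genes had a negative difference there. The median was -0.10 for them, 0.01 for the fibrillar and -0.02 for the other collagens, against 0.004 over all tested genes. With an array left out, the type IV median lay between -0.13 (without FVB replicate 3) and -0.02 (without FVB replicate 2). On chromosome 9, which carries Ackr2, lie 6 collagens, the nearest of them Col7a1 at 142 coding genes away and Col12a1 at 390 coding genes away, and none of the 6 passed in D6 over FVB.

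Diabetes on the knockout background, OVE-D6 over D6, takes its differences from the OVE-D6 and D6 arrays alone, while the standard error and p use the variance pooled over all 12 arrays. No collagen passed there, against 0.285% of all tested genes, and 2 had an unadjusted p under 0.05 in limma, where the share of all tested genes was 9.98%. Col12a1 read 8.19, 8.23 and 9.07 in OVE-D6 mice, against 7.73, 7.52 and 7.62 in D6 mice. Every OVE-D6 array was above every D6 array. The difference of 0.88 ± 0.22 had a limma adjusted p of 0.141, and without OVE-D6 replicate 3 it was 0.59 (0.332). Col4a3 read 8.37, 8.63 and 8.62 in OVE-D6 mice, against 8.63, 8.78 and 8.82 in D6 mice. The highest OVE-D6 and the lowest D6 array met at the same value, and the difference was -0.20 ± 0.09 (limma adjusted p = 0.471).

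Of the 8 collagens that passed in OVE over FVB, none passed here. The 5 that rose had differences in OVE-D6 over D6 of 0.88 for Col12a1, 0.23 for Col4a2, 0.18 for Col1a2, 0.04 for Col14a1 and 0.004 for Col6a3. The 3 that fell had differences of -0.20 for Col4a3, -0.20 for Col4a4 and -0.03 for Col8a2. Several of these values rested on OVE-D6 replicate 3. Without it the difference was 0.11 for Col4a2, -0.03 for Col1a2, 0.05 for Col14a1 and -0.03 for Col6a3, so that Col1a2 and Col6a3 changed sign. Without it the 3 that fell had -0.24 for Col4a3, -0.18 for Col4a4 and -0.07 for Col8a2. Col1a1 and Col3a1 had differences of 0.11 and 0.10 on all arrays, and of -0.14 and -0.07 without OVE-D6 replicate 3. None of these values passed with or without that array. The arrays of OVE-D6 lay wholly above D6 in Col12a1 alone and wholly below in Col24a1 alone, against 7.72% and 8.68% of all tested genes.

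Whether the diabetes difference itself changed with D6 was tested as an interaction, the difference OVE-D6 over D6 minus the difference OVE over FVB. No gene passed, collagen or other, and without OVE replicate 3 there were 377 genes but still 0 collagens. At an unadjusted p under 0.05 there were 11 collagens (25%) in limma, against 9.99% of all tested genes. Of the 11, 8 had a negative value, namely Col1a2, Col5a1, Col6a1, Col6a3, Col12a1, Col14a1, Col18a1 and Col8a1. The others were positive, Col8a2 (0.38), Col9a3 (0.32) and Col28a1 (0.42). Over all 44 collagens 24 values were positive (54.5%) and 20 negative, against 51.6% positive among all tested genes. Col12a1 had 0.88 in the knockouts against 1.73 with intact D6, an interaction of -0.86 ± 0.31 (limma adjusted p = 0.389). Col18a1 had the smallest adjusted p of the family, 0.381, with an interaction of -0.44. Col4a3 and Col4a4 had 0.25 and 0.23 (limma adjusted p = 0.549 and 0.649).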

How the data were processed

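Kidney RNA with an integrity number above 8.8 was converted to sense-strand cDNA, labelled and put on Affymetrix arrays, per the labels' protocols. The values deposited by the authors were log2 signals per probe set. The method of summarisation and normalisation is not given in the sources used here. Array medians lay between 6.841 and 6.927, and no further scaling was applied.

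Of 35556 probe sets, 21789 had 1 gene symbol, 1621 several and 12146 none. Symbols were updated through Entrez identifiers for 21698 and accessions for 3 against RefSeq GRCm38.p6, and 88 were kept. A gene was represented by its brightest probe set (highest mean), so 46 collagen probe sets gave 44 genes. Col6a5 and Col6a6 had several.

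Genes brighter than the 25th percentile of the same array, on 3 arrays or more, were tested with limma 3.58.1 (R 4.3.3): a group-means model over all 12 arrays, eBayes and Benjamini-Hochberg adjustment at 0.05 over 16480 genes, for 5 comparisons. SE and 95% intervals come from the moderated variance. The script was checked on simulated data. Means ± SD and figures used Python 3.11.15, pandas 2.3.3 and matplotlib 3.10.9. Replicate numbers follow the labels, which do not tie numbers across groups. Promoter windows come from RefSeq (GRCm38.p6).

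Values on every array are given for members past the threshold and for Col1a1, Col1a2, Col3a1 and Col4a1 to Col4a6, plus a few others picked after their values were seen (Col6a1, Col8a1, Col15a1 and Col18a1). From each handling list up to 5 genes past the threshold are named. The members, classes, marker lists and handling lists were chosen with earlier results of these data known. Alternatives changed the filter, normalisation, probe set, variance model, arrays in the fit and threshold, added a replicate block and left out each array.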

Additional observations from a re-analysis of the deposited data

How the results depend on the processing

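For OVE over FVB, 8 collagens passed. The count was 7 to 9 with no filter, a filter at the 50th percentile, quantile normalisation, the mean of probe sets or a trended robust variance. The filter at the 50th percentile removed Col8a2 and let Col6a1 pass. It was 3 (440 of all genes, against 1200) with only the 2 groups compared, 16 (2206 genes) at an adjusted p of 0.1, and between 2 (without OVE replicate 2 or FVB replicate 3) and 14 (without OVE replicate 3) with an array left out. With an array left out, 359 to 1901 genes passed in all. For OVE-D6 over OVE, 0 collagens passed. That became 1, Col18a1, at an adjusted p of 0.1 (151 genes, against 38), and lay between 0 and 4 with an array left out, 4 being without OVE replicate 3 (668 genes). Over all genes, quantile normalisation gave 9 there and the fit of those groups alone 0. The other 3 comparisons gave 0 collagens under every alternative run. For all genes, OVE-D6 over D6 gave 17 to 112, against 47, and the interaction 377 without OVE replicate 3 and 1 without D6 replicate 1, against 0. With the replicate block, 7 collagens (971 genes) passed in OVE over FVB, Col6a3 being lost (adjusted p 0.052), 0 in the other comparisons, and 7 genes in all for OVE-D6 over OVE. The labels do not tie the replicate numbers across groups. Same-number arrays of different groups had deviations correlated between -0.248 and 0.123, with 2 of 18 pairs over 0.1. Of the 12 arrays, 2 correlated best with their own number. With 3 arrays per group, such values cannot exclude a pairing. With a filter at the 50th percentile, which drops dim genes, the fibrillar median was 0.21 in OVE over FVB, against -0.04, and -0.24 in OVE-D6 over OVE, against -0.01. In the interaction the fibrillar median was -0.28 with that filter, against -0.03. With an array left out, values in OVE-D6 over D6 lay on both sides of 0 for 6 named collagens that did not pass: -0.14 to 0.26 for Col1a1, -0.028 to 0.33 for Col1a2, -0.071 to 0.25 for Col3a1, -0.038 to 0.05 for Col6a3, -0.067 to 0.03 for Col8a2 and -0.034 to 0.13 for Col14a1. No other collagen recomputed under the alternatives changed direction. The cause of these shifts was not tested. With 3 arrays per group, small differences of dim genes such as Col4a6, Col19a1 and Col28a1 could not be resolved.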
